A study of Homo sapiens with 4 samples.

Results

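The genes described here build and regulate the epithelial state: keratins, tight junction, adherens junction and desmosome components, EPCAM and the matriptase system, and vimentin with the transcription factors of epithelial-mesenchymal transition (EMT). The set lists 40 genes by name, drawn up with earlier results of these data known, of which 38 were among the 19775 genes with a value on the arrays. The probe sets of CTNND1 are paired with more than 1 symbol, and CTNND1 and F11R are not analysed here. The 38 genes were read by 85 probe sets, short groups of array probes for 1 transcript region.

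The study used 2 established human lines of small cell lung cancer: NCI-H209 and Lu139. Both received, by electroporation, either control siRNAs (siNTC) or siRNAs against TTF-1 (siTTF-1), the lung transcription factor that NKX2-1 encodes. Each of the 4 combinations was measured on 1 Affymetrix array. The time from electroporation to RNA extraction is not given in the sources used here.

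Epithelial cells are held together by junctions. Tight junctions seal the space near the apical surface through claudins and the occludin family, which are tied to scaffold proteins. Adherens junctions join cells through E-cadherin and the catenins, and desmosomes anchor the keratin filaments of neighbouring cells to each other. In EMT, repressors of the ZEB and SNAI families silence E-cadherin and other epithelial genes, while N-cadherin and vimentin become more abundant. Small cell lung cancer is a neuroendocrine carcinoma, so its cells carry neuronal and secretory genes beside keratins and EPCAM.

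Differences are given on the scale log2(intensity + 18.7), where 18.7 is the 25th percentile of all values, and this scale understates changes of dim genes. A gene counted as above the expression limit in a line when its mean there exceeded an intensity of 37.0. In pairs of intensities below, the siNTC array comes first and the siTTF-1 array second. NKX2-1 had 596 and 243 in NCI-H209 against 780 and 461 in Lu139, which left 40.7% and 59.1% of control. All 7 measured neuroendocrine markers (INSM1, CHGA, SYP, NCAM1, SCG3, DDC and GRP) were above the limit in both lines. Of markers of other cell types with a value, 3 of 6 fibroblast, 3 of 4 leukocyte and 3 of 5 endothelial genes were above the limit in NCI-H209, and 3, 3 and 2 in Lu139. Among these, COL1A1 ranged from 259 to 362 and CD3E from 63.7 to 88.6, while the defining leukocyte marker PTPRC stayed between 9.78 and 11.3. The part of these signals in the results was not tested. Median intensities of all probe sets were 56.6 and 57.7 in NCI-H209 against 48.4 and 49.6 in Lu139. Precision is limited by how few arrays there are.

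**Figure D1:**
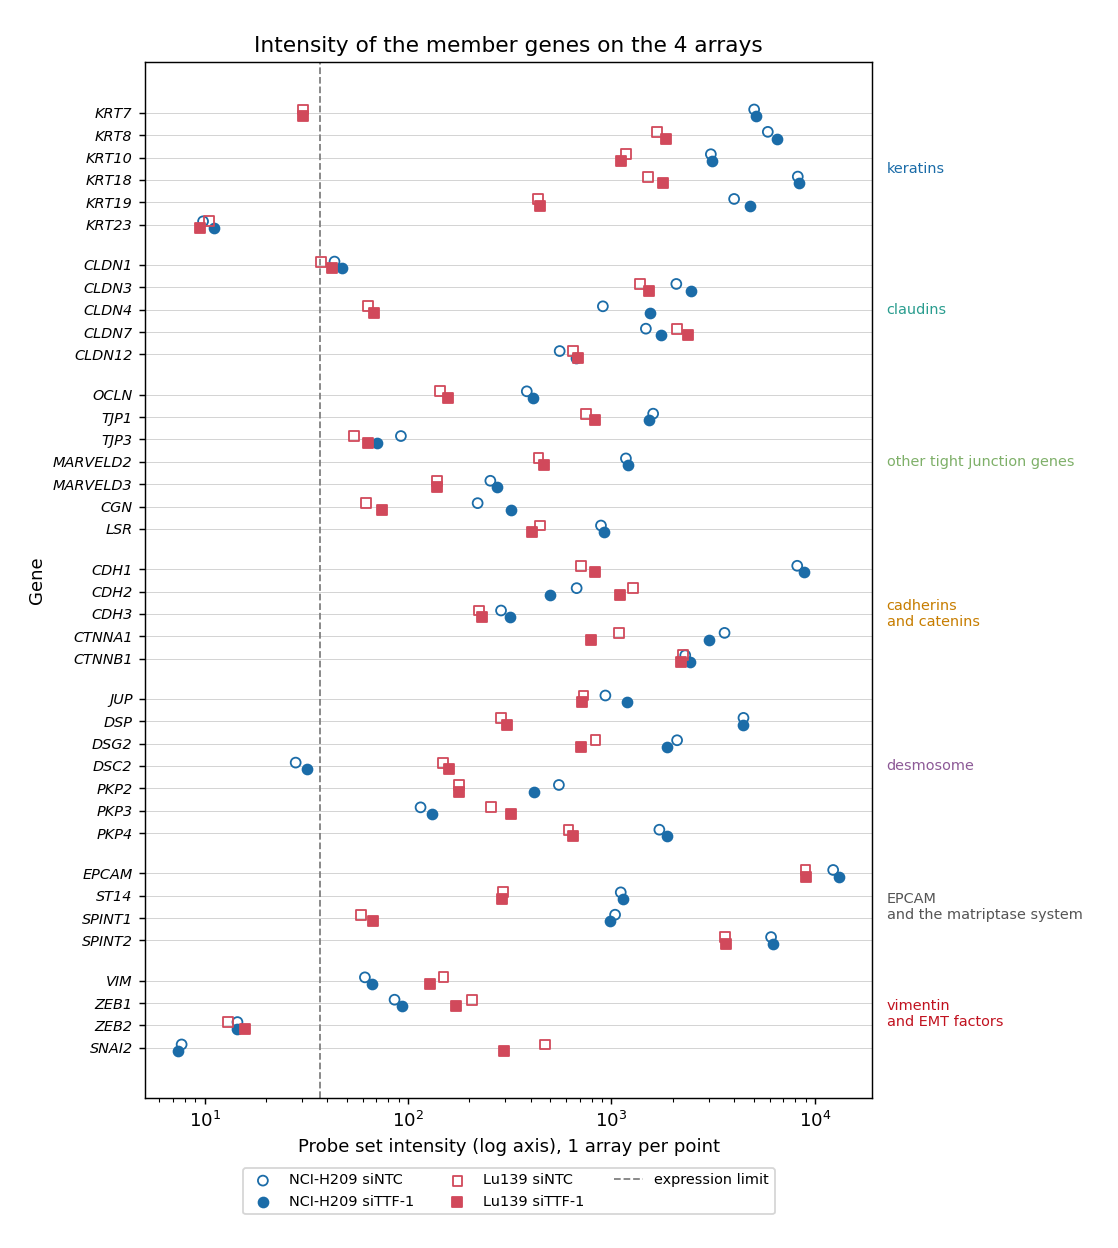
Intensity of the 38 measured genes on the 4 arrays (log axis, 1 array per point), with NCI-H209 as circles and Lu139 as squares, open for siNTC and filled for siTTF-1; the dashed line is the expression limit of 37.0. The arrays of a line lie close together for most genes, while the lines are far apart for KRT7, CLDN4, CDH1, DSP, SPINT1 and SNAI2; probe sets bind with different strength, so levels of different genes are not compared.

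The first comparison set the lines against each other. Most epithelial genes were lower in Lu139 than in NCI-H209. SNAI2, VIM, CDH2 and, on its brightest probe set, ZEB1 were higher, as were the epithelial genes DSC2, PKP3 and CLDN7. Of the 36 members tested, 26 were lower and 7 higher in Lu139 at a limma adjusted p under 0.05, and at that threshold 18 were lower by 2-fold or more and 4 higher by 2-fold or more. Over all 14547 genes tested, 51.7% were lower and 18.7% higher, with 20.2% lower and 5.4% higher by 2-fold or more. The median log2 difference, Lu139 minus NCI-H209, was -1.02 over the tested members and -0.28 over all tested genes. The median gene was thus lower in Lu139. Exactly equal intensities recurred on both arrays of a line (2416 probe sets in NCI-H209 and 2206 in Lu139) and on 0 probe sets across lines, so the lines may have been normalized separately, which was not tested. With quantile normalization over the 4 arrays, which moved the median of all genes to 0.04 and that of the members to -0.56, 22 members were lower and 9 higher, against 32.8% and 36.7% of all genes. Of these members, 12 were then lower and 6 higher by 2-fold or more. The line differences below are thus partly a matter of scaling. KRT7 was below the expression limit in Lu139, and DSC2 and SNAI2 in NCI-H209, so passing the filter fixed their direction. The p-values of this comparison rest on 2 arrays per line that carry different siRNAs. The spread behind them is how differently the lines responded to siTTF-1, array noise included, combined with a spread drawn from all genes. No line has replicate cultures of the same siRNA, so these p-values do not measure variation between cultures of a line. In RNA of whole cultures, fewer cells with a transcript and less of it per cell cannot be told apart.

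**Figure D2:**
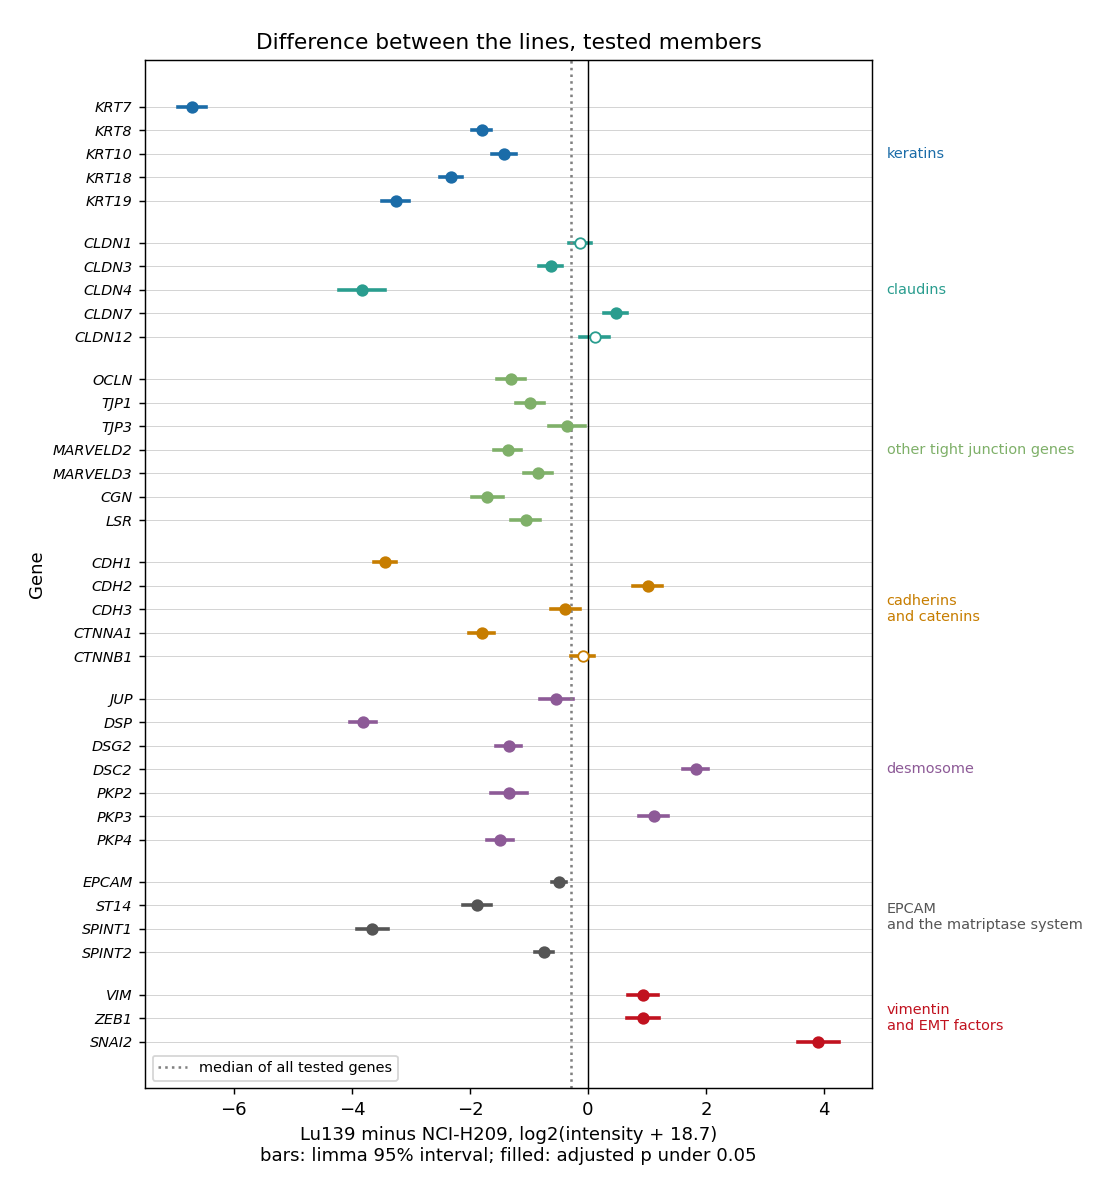
Log2 difference, Lu139 minus NCI-H209, of the 36 tested genes by role, with the limma 95% interval; filled points have an adjusted p under 0.05 and the dotted line is the median of all tested genes at -0.28. KRT7, CLDN4, DSP, SPINT1 and CDH1 lie farthest to the left, and SNAI2, DSC2, PKP3 and CDH2 farthest to the right; KRT7, DSC2 and SNAI2 were below the limit in 1 line, so their plotted sizes and intervals depend on the added 18.7.

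Keratins, the intermediate filaments of epithelial cells, were lower in Lu139 for all 5 members tested, beside 51.7% of all genes. All 5 were lower by 2-fold or more, beside 20.2% of all genes. After quantile normalization over the arrays all 5 were still lower, 4 of them by 2-fold or more. KRT7, a keratin of simple and glandular epithelia, had 5024 and 5149 in NCI-H209 and 30.3 on both arrays of Lu139, under the expression limit. Against that limit KRT7 was at least 138-fold lower in Lu139, a bound that was not itself tested. The fitted log2 difference of -6.70 (limma adjusted p = 1.47e-07) depends on the added 18.7, and was -7.00 with it halved and -6.24 with it doubled. Another KRT7 probe set was above the limit in both lines, at 284 and 301 against 111 and 122 (-1.20), so the size of the KRT7 difference depended on the probe set. KRT19, another keratin of simple epithelia, was at 4005 and 4769 in NCI-H209 against 436 and 445 in Lu139 (log2 difference -3.26, 95% interval -3.49 to -3.03). The second KRT19 probe set, which was dim, had -0.76. KRT8 and KRT18, the partners that form the basic filament of simple epithelia, remained well above the limit in Lu139. KRT8 was at 5864 and 6510 against 1676 and 1843 (-1.80), and KRT18 at 8231 and 8327 against 1508 and 1792 (-2.32). KRT8 and KRT18 have many processed pseudogenes and each was read by 1 probe set of the _x_at type, whose probes can bind related transcripts, so these values are uncertain. KRT10, known from the upper layers of the epidermis, was lower in Lu139 on all 3 of its probe sets, between -1.70 and -1.32. KRT23 was between 9.46 and 11.1 on the 4 arrays, below the limit in both lines.

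Claudins, the membrane strands that set tight junction permeability, did not follow 1 pattern. CLDN4 was at 907 and 1554 in NCI-H209 against 63.4 and 68.4 in Lu139 (-3.84, 95% interval -4.22 to -3.45, limma adjusted p = 1.87e-06). The second CLDN4 probe set was dim in all 4 samples (50.8 to 73.4) and was higher in Lu139 by 0.35, so the large difference rests on 1 probe set. CLDN3 was at 2082 and 2453 against 1377 and 1536 (-0.63, limma adjusted p = 3.89e-04), a smaller difference that was -0.17 with an adjusted p of 0.106 after quantile normalization over the arrays. CLDN7 went the other way, with 1476 and 1761 in NCI-H209 against 2108 and 2372 in Lu139 (0.47, limma adjusted p = 0.00173, and 0.92 after quantile normalization). CLDN12 (0.12) and CLDN1 (-0.14, with intensities from 37.2 to 47.6 just above the limit) did not pass the test. After quantile normalization CLDN12 passed, at 0.57 (limma adjusted p = 0.00132). Of the claudins, CLDN4 was thus the 1 member that differed by 2-fold or more.

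The other tight junction genes were lower in Lu139 in 7 of 7 cases, 4 of them at least 2-fold, against 51.7% and 20.2% of all genes. After quantile normalization over the arrays 6 of 7 were lower and 1, CGN, at least 2-fold. CGN, which encodes the cytoplasmic plaque protein cingulin, was at 220 and 319 in NCI-H209 against 62.0 and 74.8 in Lu139 (-1.71, 95% interval -1.97 to -1.45). The occludin family members OCLN (-1.31), MARVELD2, which encodes tricellulin of tricellular contacts (-1.36), and MARVELD3 (-0.84) were also lower. The other OCLN probe sets had smaller differences of -0.71, -0.45 and -0.39. LSR, a membrane protein of those contacts, had -1.05 and the scaffold gene TJP1, which encodes ZO-1, had -0.98. After quantile normalization LSR had -0.60, TJP1 -0.53 and MARVELD3 -0.43, each smaller by over 1.5 times. For each of these 6 genes both arrays of NCI-H209 lay above both arrays of Lu139. With 2 arrays per line this adds little, and its share over all genes was not counted. TJP3, which encodes ZO-3, was dim, at 92.3 and 70.1 in NCI-H209 against 54.3 and 63.7 in Lu139. It had the smallest difference of the role (-0.36, limma adjusted p = 0.0409), and that call was lost with quantile normalization over the arrays (adjusted p = 0.337), without an expression limit (0.0552) and without the variance trend in limma (0.0510).

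The classical cadherins differed in opposite directions. CDH1, the E-cadherin gene, was at 8180 and 8825 in NCI-H209 against 705 and 826 in Lu139 (-3.44, 95% interval -3.63 to -3.26, limma adjusted p = 2.34e-07), and its second probe set had -2.34. CDH2, the N-cadherin gene, was at 674 and 499 in NCI-H209 against 1280 and 1100 in Lu139 (1.01, 95% interval 0.77 to 1.25, limma adjusted p = 9.86e-05). Both cadherin transcripts were thus above the limit in both lines. The second CDH2 probe set had a difference of 0.22, so the size of the N-cadherin difference depended on the probe set. CDH3, the P-cadherin gene, had -0.38 (limma adjusted p = 0.0121), which was 0.07 after quantile normalization over the arrays. CTNNA1, the alpha-catenin gene that links the complex to actin, was at 3594 and 3012 against 1091 and 795 (-1.80). It was lower in Lu139 on 4 of 5 probe sets, and the remaining, dim one had 0.03. CTNNB1, which encodes beta-catenin, was at 2304 and 2433 in NCI-H209 against 2242 and 2197 in Lu139 (-0.09, 95% interval -0.28 to 0.10). After quantile normalization CTNNB1 had 0.37 (limma adjusted p = 0.00394). Another CTNNB1 probe set was at 364 and 328 against 163 and 123 (-1.18), and the dimmest had -0.14. The size of the CTNNB1 difference thus depended on the probe set. Averaged over its probe sets CTNNB1 had -0.47 (limma adjusted p = 0.00714).

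Desmosome genes included members that were lower in Lu139 and members that were higher. DSP encodes desmoplakin, which ties the desmosome to keratin filaments, and was at 4452 and 4405 in NCI-H209 against 286 and 307 in Lu139 (-3.82, 95% interval -4.04 to -3.60, limma adjusted p = 2.72e-07). DSC2, a desmosomal cadherin gene, was at 28.0 and 31.7 in NCI-H209, below the limit, and at 148 and 158 in Lu139. Against the limit it was at least 4.14-fold higher in Lu139 (fitted log2 difference 1.82, limma adjusted p = 3.07e-06). DSG2, another desmosomal cadherin gene, was at 2101 and 1874 against 835 and 712 (-1.34, and -0.89 after quantile normalization). DSC2 and DSG2 thus differed in opposite directions. The plakophilins, armadillo proteins of the desmosomal plaque, were also divided. PKP3 was higher in Lu139, at 256 and 322 against 115 and 131 (1.11, 95% interval 0.87 to 1.36), and PKP2 (-1.34) and PKP4 (-1.48) were lower. The second PKP2 probe set had -0.38, and the 5 of PKP4 ranged from -1.93 to -0.45. JUP, the plakoglobin gene, had -0.53 (limma adjusted p = 0.00510), which was -0.08 (adjusted p = 0.566) after quantile normalization over the arrays.

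The 250 bases before the start of DSP, DSG2 and DSC2, which differed in opposite directions, are shown from the RefSeq promoter table on GRCh38.p14. Only windows that held the E-box described below were eligible to be shown. The window of JUP, another desmosome gene, did not hold it. These windows are DSP at chr6:7541421-7541670 on the plus strand, DSG2 at chr18:31497927-31498176 on the plus strand and DSC2 at chr18:31102422-31102671 on the minus strand. Capitals mark the E-box CACCTG or its reverse complement CAGGTG, the sequence that ZEB and SNAI factors are known to bind.
DSP: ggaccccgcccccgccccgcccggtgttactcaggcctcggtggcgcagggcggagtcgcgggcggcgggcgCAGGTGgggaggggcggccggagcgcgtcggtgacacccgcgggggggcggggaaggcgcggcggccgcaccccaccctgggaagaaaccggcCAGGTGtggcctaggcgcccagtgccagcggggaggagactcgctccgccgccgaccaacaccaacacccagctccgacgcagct
DSG2: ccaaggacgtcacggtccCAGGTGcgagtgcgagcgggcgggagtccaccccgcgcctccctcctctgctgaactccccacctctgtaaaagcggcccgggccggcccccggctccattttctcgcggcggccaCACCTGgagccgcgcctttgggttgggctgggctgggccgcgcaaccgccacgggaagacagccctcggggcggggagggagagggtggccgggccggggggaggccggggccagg
DSC2: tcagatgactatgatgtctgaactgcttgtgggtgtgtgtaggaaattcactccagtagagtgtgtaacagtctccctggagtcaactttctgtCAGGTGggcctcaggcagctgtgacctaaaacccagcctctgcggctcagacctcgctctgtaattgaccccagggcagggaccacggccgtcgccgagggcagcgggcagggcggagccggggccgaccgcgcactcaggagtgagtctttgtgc
These 3 windows were selected as holding the E-box, with 2 matches in DSP, 2 in DSG2 and 1 in DSC2. The table had an entry for 25 of the 40 genes, and 6 of these (24%) held the E-box on either strand, against 17.5% of 27305 promoters of all genes. It was in 4 of the 16 promoters of members lower in Lu139 (DSP, DSG2, OCLN and TJP1) and in 2 of the 5 of members that were higher (DSC2 and ZEB1). The letters CTCAAG, a core of TTF-1 sites, or the reverse complement CTTGAG, were in 1 of the 25 windows (JUP), against 10.4% of all promoters. No member's window held both. A match describes the letters of the window and is not evidence of binding.

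EPCAM and the matriptase system were lower in Lu139 for 4 of 4 genes, beside 51.7% of all genes, by very different amounts. After quantile normalization over the arrays EPCAM had -0.27 and SPINT2 -0.31, both smaller by over 1.5 times. EPCAM, the epithelial adhesion molecule used to mark carcinoma cells, was at 12285 and 13124 in NCI-H209 against 8981 and 9047 in Lu139 (-0.49, 95% interval -0.61 to -0.38). SPINT1, which encodes the matriptase inhibitor HAI-1, was at 1042 and 982 against 58.5 and 67.5 (-3.66, 95% interval -3.92 to -3.40, limma adjusted p = 5.09e-07). Its second probe set had -0.41. ST14, the gene of the membrane protease matriptase itself, had -1.88, with 1110 and 1139 in NCI-H209 against 294 and 288 in Lu139. SPINT2, which encodes the related inhibitor HAI-2, had -0.75, at 6083 and 6188 against 3621 and 3674. On the brightest probe sets, SPINT1 thus had the largest and EPCAM the smallest difference of these 4 genes. On its second probe set SPINT1 (-0.41) differed less than EPCAM (-0.49).

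Among vimentin and the EMT factors, SNAI2 differed most. SNAI2, which encodes the repressor SLUG, was at 7.72 and 7.44 in NCI-H209, far below the limit, and at 471 and 297 in Lu139. Against that limit SNAI2 was at least 10.1-fold higher in Lu139, on its 1 probe set. The fitted log2 difference of 3.90 (limma adjusted p = 1.17e-06) depends on the added 18.7, and was 4.50 with it halved and 3.20 with it doubled. ZEB1, a repressor of CDH1, was at 85.9 and 93.0 in NCI-H209 against 206 and 172 in Lu139 on its brightest probe set (0.94, limma adjusted p = 2.48e-04). On its other probe set above the limit the order of the lines was the other way, with -0.34, and averaged over its probe sets ZEB1 had 0.21 (limma adjusted p = 0.0549). VIM, the vimentin gene, was at 61.4 and 66.3 against 150 and 128 (0.93, limma adjusted p = 1.74e-04), and both lines had low intensities on the 1 VIM probe set above the limit. All 5 probe sets of ZEB2 were below the limit in both lines.

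**Figure D3:**
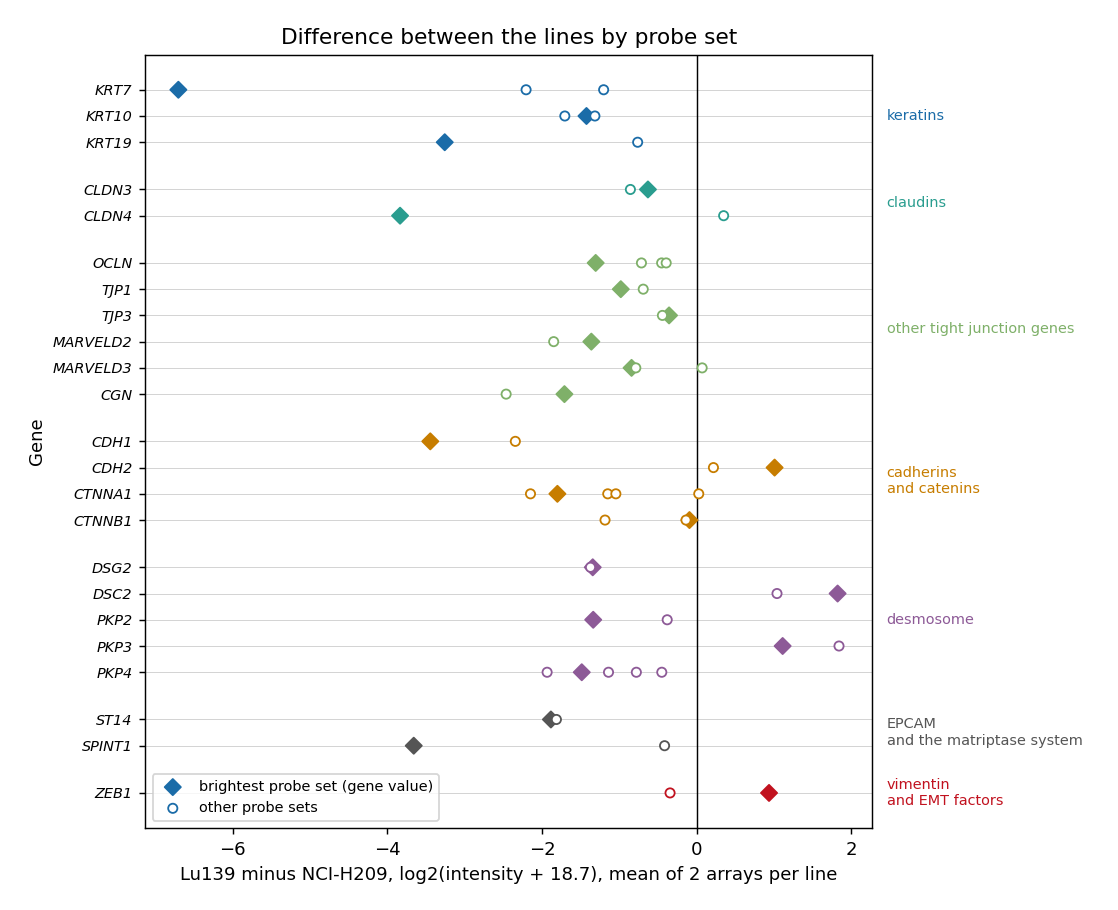
Log2 difference, Lu139 minus NCI-H209, of each probe set above the expression limit in at least 1 line, for the 23 genes with 2 or more such probe sets; filled diamonds are the brightest probe set, used as the gene value. For CLDN4, MARVELD3, CTNNA1 and ZEB1 the probe sets lie on both sides of 0.

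The probe sets of a gene were mostly of 1 direction between the lines. Of the 23 members with 2 or more probe sets above the limit, 19 had every such probe set on the same side, and CLDN4, MARVELD3, CTNNA1 and ZEB1 did not. Some pairs of members are immediate neighbours among the protein-coding genes of the RefSeq table, and neighbours differed by unlike amounts. CDH1 (-3.44) lies next to CDH3 (-0.38), and CLDN4 (-3.84) next to CLDN3 (-0.63). By contrast, KRT8 (-1.80) and KRT18 (-2.32), and MARVELD2 (-1.36) and OCLN (-1.31), had similar differences. CDH2 (1.01) and DSC2 (1.82), with 1 protein-coding gene between them, were both higher in Lu139.

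The second comparison asked what siTTF-1 changed, which is the question of the series. In NCI-H209, 1 of the 34 members above the limit was at least 1.5-fold higher after siTTF-1 (CLDN4) and 0 were at least 1.5-fold lower, against 1.09% and 3.52% of all 14632 genes above the limit there. In Lu139, 0 of 35 were at least 1.5-fold higher and 1 was at least 1.5-fold lower (SNAI2), against 0.193% and 0.936% of 13996 genes. These counts have no test, because each line has 1 array per siRNA. Across the lines limma called 0 of the 36 tested members at an adjusted p under 0.05, as it called 0% of all genes. At an unadjusted limma p under 0.05 there were 5 members of the 36 (CTNNA1, CGN, CDH2, CLDN4 and CLDN7), against 16.5% of all genes, so the members did not exceed the background.

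**Figure D4:**
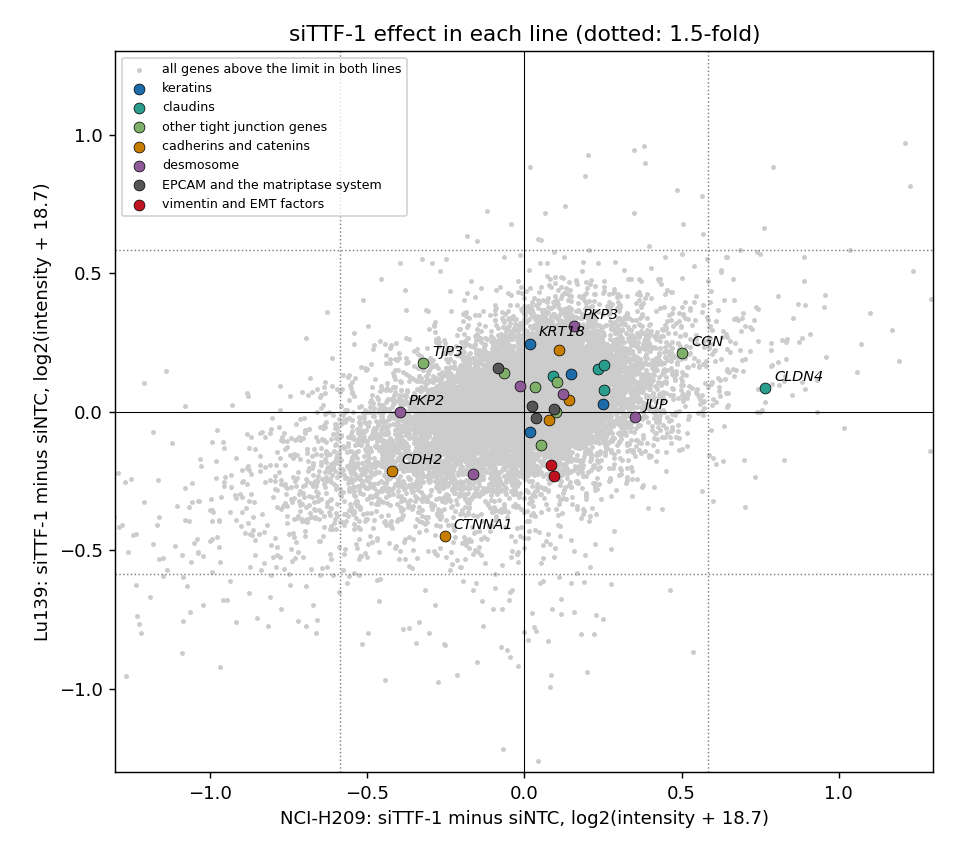
Log2 difference, siTTF-1 minus siNTC, in NCI-H209 (x axis) and Lu139 (y axis), for the 33 members above the limit in both lines (coloured by role) over all 13306 such genes (grey, of which 37 lie beyond the axes); dotted lines mark 1.5-fold. CLDN4 is the 1 member beyond a dotted line, and most members lie within 0.5 of 0 in both lines.

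CLDN4 and SNAI2 had the largest differences after siTTF-1. CLDN4 was at 171% of control in NCI-H209 (907 and 1554, log2 difference 0.76) and at 108% in Lu139 (63.4 and 68.4, log2 difference 0.09). As the mean of both its probe sets, the difference in NCI-H209 was 0.42 and no longer reached 1.5-fold. SNAI2 was at 63.0% of control in Lu139 (471 and 297, log2 difference -0.63) and below the limit on both arrays of NCI-H209. On their brightest probe sets, the other members above the limit differed by less than 1.5-fold in either line. On other probe sets above the limit, CGN had 0.61 in NCI-H209 and CTNNA1 had -0.61 in Lu139, both past 1.5-fold. No test compared the lines' responses with each other.

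The 5 members with the lowest unadjusted limma p-values of the siRNA effect were junction genes, as are most of the 36 tested members. For CTNNA1 the values were -0.25 (NCI-H209) and -0.45 (Lu139), with a mean log2 difference of -0.35 (SD 0.14, n = 2 lines, limma adjusted p = 0.165). Its 5 probe sets did not all share the direction: 3 were lower in NCI-H209 and 4 in Lu139. The mean was 0.26 on the 1 probe set left when those named _x_at or _s_at were set aside. CGN had 0.50 and 0.21 (mean 0.36, SD 0.21, limma adjusted p = 0.211) and was higher on both of its probe sets in both lines. CDH2 had -0.42 and -0.21 (mean -0.32, SD 0.15, limma adjusted p = 0.218) and was lower on both of its probe sets in both lines. CLDN4 had a mean of 0.42 (SD 0.48, limma adjusted p = 0.276), and CLDN7 had 0.25 and 0.17 (mean 0.21, SD 0.06, limma adjusted p = 0.280). Each of these values missed the threshold, with 95% intervals of -0.56 to -0.14 for CTNNA1, 0.10 to 0.62 for CGN and -0.56 to -0.07 for CDH2.

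By role, claudins had positive values after siTTF-1 in both lines for 5 of 5 members, beside 37.7% of all genes, though none passed limma. The claudin median was 0.25 (NCI-H209) and 0.13 (Lu139), against 0.01 and 0.03 over all genes above the limit. CLDN3 had 0.23 and 0.16, CLDN12 had 0.26 and 0.08, and CLDN1 had 0.09 and 0.13. Keratins had medians of 0.04 and 0.08. KRT8 had 0.15 and 0.14, KRT18 0.02 and 0.25, and KRT19 0.25 and 0.03, while KRT7 was at 102% of control in NCI-H209. The 4 genes of EPCAM and the matriptase system stayed between 94.3% and 115% of control in both lines, and EPCAM was at 107% and 101%.

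Tight junction genes other than claudins had medians of 0.05 and 0.11, and MARVELD2, MARVELD3, OCLN, TJP1 and LSR were between 91.6% and 111% of control. In the desmosome, JUP had 0.35 in NCI-H209 and -0.02 in Lu139, PKP2 had -0.40 and 0.00, and PKP3 had 0.16 and 0.31. DSG2 had -0.16 and -0.22, and DSP had -0.02 and 0.09, a mean of 0.04 with a 95% interval of -0.18 to 0.26. CDH1 was at 108% and 117% of control (0.11 and 0.22, mean 0.17, 95% interval -0.02 to 0.35, limma adjusted p = 0.342). ZEB1 had 0.10 and -0.23, and VIM had 0.09 and -0.19. Over the 33 members above the limit in both lines, 17 were higher in both and 3 lower in both, against 37.7% and 27.5% of 13306 genes.

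Beyond the listed genes, 108 further epithelial and EMT genes were examined in lists chosen in the same way, 97 with a value and 74 tested. Between the lines, 49 of these were lower in Lu139 and 10 higher at a limma adjusted p under 0.05, with a median log2 difference of -0.65, against 51.7%, 18.7% and a median of -0.28 for all genes. After quantile normalization over the arrays 39 were lower and 19 higher, with a median of -0.39. The epithelial regulators were lower in 9 of 9 cases, 8 of them at least 2-fold, against 51.7% and 20.2% of all genes. These counts were the same after that normalization. Of the 9, only 6 were above the limit in Lu139. The others passed the limit only through NCI-H209, so the filter fixed their direction. GRHL2, a grainyhead factor that activates epithelial junction genes, was at 934 and 942 in NCI-H209 and at 11.2 on both arrays of Lu139. The Lu139 values were below the limit, and GRHL2 was thus at least 25.4-fold lower there. Its fitted log2 difference was -5.00 (limma adjusted p = 1.73e-07). OVOL2, a repressor of ZEB1, had -1.64, and ESRP1, an epithelial splicing regulator, had -2.10 but stayed at 1210 and 1187 in Lu139. ESRP2 is not analysed here. Of 16 polarity and apical trafficking genes, 13 were lower and 1 higher in Lu139, and of 9 epithelial surface and protease genes, 8 were lower and 0 higher. After quantile normalization the polarity genes had 10 lower and 3 higher, and the surface genes 6 and 1. Other junction genes were lower in 13 and higher in 5 of 23 cases, and in 10 and 8 after quantile normalization. Keratins outside the main set had 2 of 3 tested genes lower and 0 higher, and 1 and 0 after quantile normalization. A doubled pseudocount or no variance trend also left 1 lower. Of the 3, only 2 were above the limit in both lines.

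Mesenchymal genes were divided, 4 of the 14 tested being lower in Lu139 and 4 higher, and 3 and 7 after quantile normalization. Of the 14, only 9 were above the limit in both lines. The others passed it through a single line, which fixed their direction, and most of the called genes were among these. TWIST1, a mesenchymal transcription factor gene, was at 12.9 and 13.1 in NCI-H209 against 132 and 126 in Lu139, at least 3.50-fold higher when set against the limit. Its fitted log2 difference was 2.22 (limma adjusted p = 1.15e-06). SNAI1, the snail gene, was close to the limit in both lines and did not pass (0.20, limma adjusted p = 0.0696). FN1, the fibronectin gene, was lower in Lu139 (-2.37) and TCF4, which encodes an E protein, was higher (3.59).

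**Figure D5:**
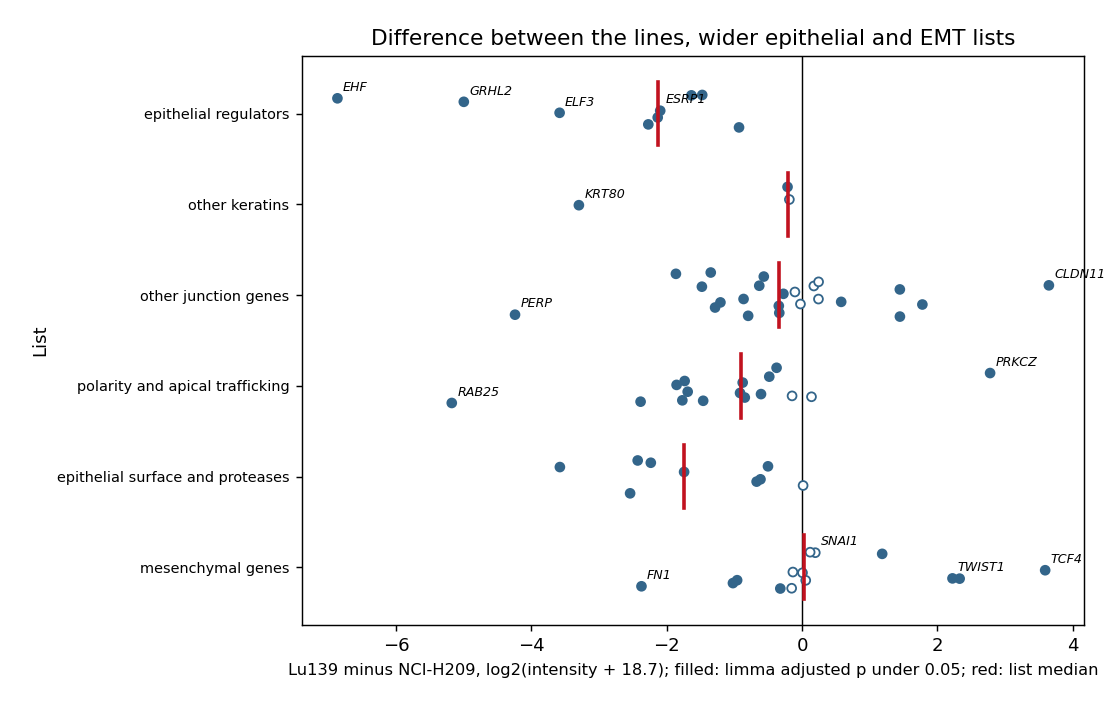
Log2 difference, Lu139 minus NCI-H209, of the 74 tested genes of the wider lists, 1 point per gene (filled: limma adjusted p under 0.05), with the list median as a red bar. Epithelial regulators lie entirely to the left of 0, while the mesenchymal genes lie on both sides.

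After siTTF-1, 3 of the 72 wider genes above the limit in NCI-H209 were at least 1.5-fold higher and 4 at least 1.5-fold lower, against 1.09% and 3.52% of all genes, and in Lu139 0 of 66 were either (VCL lay just under 1.5-fold there). In NCI-H209, KRT20, a keratin of intestinal epithelium, was at 27.0, below the limit, and 81.8, at least 2.21-fold higher when set against the limit. KRT20 passed the limit only through its siTTF-1 array. NECTIN4, an adherens junction adhesion gene, was at 99.5 and 207 (0.93). PARD6B, which acts in cell polarity, had 0.62 there and 0.51 in Lu139. FN1 was at 737 and 314 (-1.18), VCL, the vinculin gene, had -0.75 and -0.58, TCF4 had -0.69 and -0.13, and CGNL1, a relative of cingulin, had -0.64 and -0.06. None of the 74 tested genes passed limma at an adjusted p under 0.05, and 13 had an unadjusted p under 0.05, beside 16.5% of all genes. GRHL2 had 0.01 and 0.00, OVOL2 -0.09 and 0.10, ESRP1 0.05 and -0.03, SNAI1 0.16 and 0.13, and TWIST1 0.01 and -0.06 in NCI-H209 and Lu139.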

How the data were processed

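Total RNA of 4 cultures was measured on 1 Affymetrix array each. The authors deposited 1 linear intensity per probe set. The submitters' processing notes name Affymetrix Expression Console. How values were summarised and normalized is not given in the sources used here. Both arrays of a line shared exactly equal intensities for 2416 (NCI-H209) and 2206 (Lu139) probe sets, against 0 between lines.

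The 62 control probe sets were left out. Of the others, 41091 had 1 gene symbol, 1801 several and 11721 none in the platform annotation, and 41037 were named through RefSeq gene identifiers (GRCh38.p14). Each gene was represented by its brightest probe set (mean log2 value). The expression limit was the 40th percentile of mean log2(intensity + 18.7) over probe sets. limma 3.58.1 in R 4.3.3 fitted line and siRNA together over all 14547 genes above the limit (variance trend, 1 residual and 5.91 prior degrees of freedom, Benjamini-Hochberg adjustment, two-sided), and the procedure was tested on simulated data. Lists are described by counts and medians. All members and NKX2-1 are named. Of the wider lists, genes at least 1.5-fold changed in either line and 6 fixed genes (GRHL2, OVOL2, ESRP1, ESRP2, SNAI1 and TWIST1) are named with values. The members and lists were chosen with earlier results of these data known. Plots used Python 3.11.15 and matplotlib 3.10.9. Alternatives covered the pseudocount, normalization, probe set choice, expression limit, variance trend and line term.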

Additional observations from a re-analysis of the deposited data

Results flagged for a closer look

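TJP3, the ZO-3 gene, moved in opposite directions after siTTF-1 in the lines, by at least 1.1-fold in each. It had a log2 difference of -0.32 in NCI-H209 (92.3 and 70.1) and 0.17 in Lu139 (54.3 and 63.7). This contrast of the lines was not tested, as there was 1 array per siRNA in each. The second TJP3 probe set had 0.00 and 0.04.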

How the results depend on the processing

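Of 304 values of the line difference of single members under alternatives, 292 kept their direction and their side of the threshold. Some alternatives, such as the variance trend and normalization within each line, leave this difference nearly unchanged, so the total says little about scaling between lines. With quantile normalization over the 4 arrays, the direction turned for CLDN1 (0.008), CDH3 (0.067) and CTNNB1 (0.37). CLDN3, CDH3, TJP3 and JUP then no longer passed limma, while CLDN12 and CTNNB1 did. Under that setting 8 members rather than 5 had an unadjusted siTTF-1 p under 0.05 in limma. With the mean of all probe sets, 0 members were at least 1.5-fold higher in NCI-H209, 5 were lower in both lines, 4 were higher in Lu139, and 2 of these at least 2-fold. An expression limit at the 60th percentile also left 2 at least 2-fold higher. A halved or doubled pseudocount gave 6 and 3. By 2-fold or more, 12 members were lower and 6 higher with quantile normalization over the arrays. For the wider lists, whose alternatives were added after seeing the data, 19 genes rather than 10 were higher in Lu139 with quantile normalization over the arrays, and 4 with the 60th percentile limit. With no line term, 0 members had an unadjusted siTTF-1 p under 0.05. Leaving out probe sets named _x_at or _s_at, an alternative chosen after seeing the data, left 23 members tested. Then 14 were lower in Lu139, 10 at least 2-fold, 11 were higher in both lines after siTTF-1, and CTNNA1 turned to 0.26 for siTTF-1 and 0.028 between the lines. For siTTF-1, 0 members passed limma at an adjusted p under 0.05 under these pseudocount, normalization, probe set, limit and trend alternatives. Over all genes, quantile normalization over the arrays called 49 lower and 17 higher, quantile normalization within each line 33 and 8, and the 60th percentile limit 32 and 6. Within-line differences lack a replicate check.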

Other observations

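Some members had exactly equal intensities on both arrays of a line. This held for 4 of their 85 probe sets in NCI-H209 and 6 in Lu139, of which 1 and 4 were above the expression limit. In Lu139 these included PKP2 at 178 and the brightest probe set of MARVELD3 at 139, so their siTTF-1 differences of 0.00 are an exact equality.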
